A study of Mus musculus with 180 samples.

Results

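The genes described here are 10 G-protein-coupled receptor genes of macrophages, *Gpr35*, *Gpr65*, *Gpr84*, *Gpr132*, *Gpr183*, *Ptger2*, *Ptger4*, *Adora2a*, *Adora2b* and *Ccr1*, out of 45070 genes in the table. They were taken by symbol, and *Gpr35* was chosen by its own values, having risen with Midostaurin, so its values with Midostaurin and DMSO are a description and carry no test. All samples are bone marrow-derived macrophages (BMDMs), cells grown in culture from the bone marrow of wild-type mice, which the study's methods describe as male C57/BL6. They received 1 of 58 clinical kinase inhibitors (CKIs), or the vehicle DMSO, 1 h ahead of LPS, a bacterial membrane component sensed by TLR4, which was given at 10 ng/ml for 2 h. Each CKI has 3 samples and DMSO has 6, in all 180, and every sample had received LPS, so the values say nothing about induction by LPS itself. Each CKI was used at 1 concentration, which differed between CKIs, and values of different CKIs are therefore set side by side without a test between them.

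G-protein-coupled receptors span the membrane with a bundle of helices and signal through heterotrimeric G proteins. In macrophages, receptors that couple to Gs, such as the prostaglandin E2 receptors EP2 and EP4 and the adenosine receptors of *Adora2a* and *Adora2b*, raise cyclic AMP and are known for dampening inflammatory cytokine production. Others guide cells towards chemokines or oxysterols, or sense protons and fatty acids released in inflamed tissue.

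The measure is the normalized exonic read count, a read count on the exons of a gene that the authors scaled on genes of stable expression and rounded. The normalized counts summed to between 9477340 and 12273349 per sample, with a median of 10521148.5. Macrophage markers such as *Csf1r* (at least 21875 in every sample) were high, while the B cell markers summed to at most 5, the T cell markers to at most 3 and the neutrophil markers to between 202 and 2081. The mast cell, fibroblast and dendritic cell markers summed to at most 55, 221 and 142, and *Cd79a* and *Mcpt4* were at 0 in all DMSO samples. All 10 receptor genes were measured in every sample and all passed the filter of a mean of at least 10, *Gpr35* narrowly with 16.9 over all samples and 16.1 without the Midostaurin samples. Per kilobase of transcript, the mean level in DMSO was highest for *Gpr84* with 1240, followed by *Ptger4* with 405, *Adora2b* with 347, *Adora2a* with 231 and *Gpr132* with 229. *Gpr65*, *Gpr183*, *Ptger2* and *Ccr1* had 121, 105, 59.3 and 55.1, and *Gpr35* was far lower with 2.63. Fold changes are differences of log2(normalized count + 1) against DMSO from 1 limma fit over all 59 groups, given with their standard error (SE), and a call is a Benjamini-Hochberg adjusted p under 0.05 over the 12714 genes tested. The 6 DMSO samples carry the names of 2 sets, of 3 replicates each, and the labels do not tie CKIs to a set. Each call was recomputed under 25 alternative settings of the fit, such as without some samples, against 1 DMSO set, or with a replicate block, a term that lets same-numbered samples share a shift. The log2(normalized count + 1) scale understates the changes of low genes such as *Gpr35*.

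*Gpr35* encodes a receptor of macrophages and gut epithelium whose physiological ligand is still debated. In the 6 DMSO samples its normalized count was 5 at the lowest, 13 at the median and 17 at the highest. In the 3 Midostaurin samples it was 64, 66 and 74, so every Midostaurin sample lay above every other sample of the series. Midostaurin inhibits several kinases, among them FLT3 and protein kinase C. The log2 fold change was 2.54 ± 0.38 (SE), or 5.82-fold, the highest of the 58 CKIs. Refametinib, a MEK inhibitor, came next with 37, 25 and 29, then Tofacitinib, a JAK inhibitor, with 24, 31 and 32, and Pimasertib, another MEK inhibitor, with 20, 27 and 24. These 9 samples also lay above all DMSO samples, and the log2 fold changes were 1.39, 1.33 and 1.05. In the same groups mitochondrially encoded transcripts averaged 2.56, 2.64 and 3.66% of the normalized counts, against 1.15% in DMSO. The part of this share in the rises was not tested. At the lower end Volasertib, an inhibitor of the mitotic kinase PLK1, had 7 in all 3 samples, and Filgotinib, a JAK1 inhibitor, had 14, 7 and 2. Both overlapped with DMSO.

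In the order of the 59 group means of *Gpr35*, 1 of the 58 pairs of neighbouring groups had ranges that did not overlap, that of Midostaurin and Refametinib. *Gpr35* was picked for its rise with Midostaurin, so this separation is a description and no support for that rise. DMSO stood at place 51 of this order, and the median of the group means was 16.0 against a mean of 11.8 ± 5.19 (SD, n = 6) in DMSO. *Gpr35* therefore looked raised in many CKIs when set against DMSO, and since the same DMSO samples entered its choice, no count of such rises is given. Set against the mean of the other CKIs, with DMSO and Midostaurin left out, a reference added after seeing the data, *Gpr35* was called in 1 of 57 CKIs. This was Filgotinib, lower by a log2 difference of -1.18 ± 0.31 (SE, limma adjusted p = 0.00314). In that contrast 15.3% of all genes were called lower, and at an unadjusted p under 0.05 *Gpr35* was higher in 3 and lower in 4 of the 57 CKIs. The Filgotinib samples overlapped with DMSO, and differences of a few counts are not resolved in this gene. Volasertib, with the lowest group mean of *Gpr35* (7.0), was not called against this reference.

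**Figure D1:**
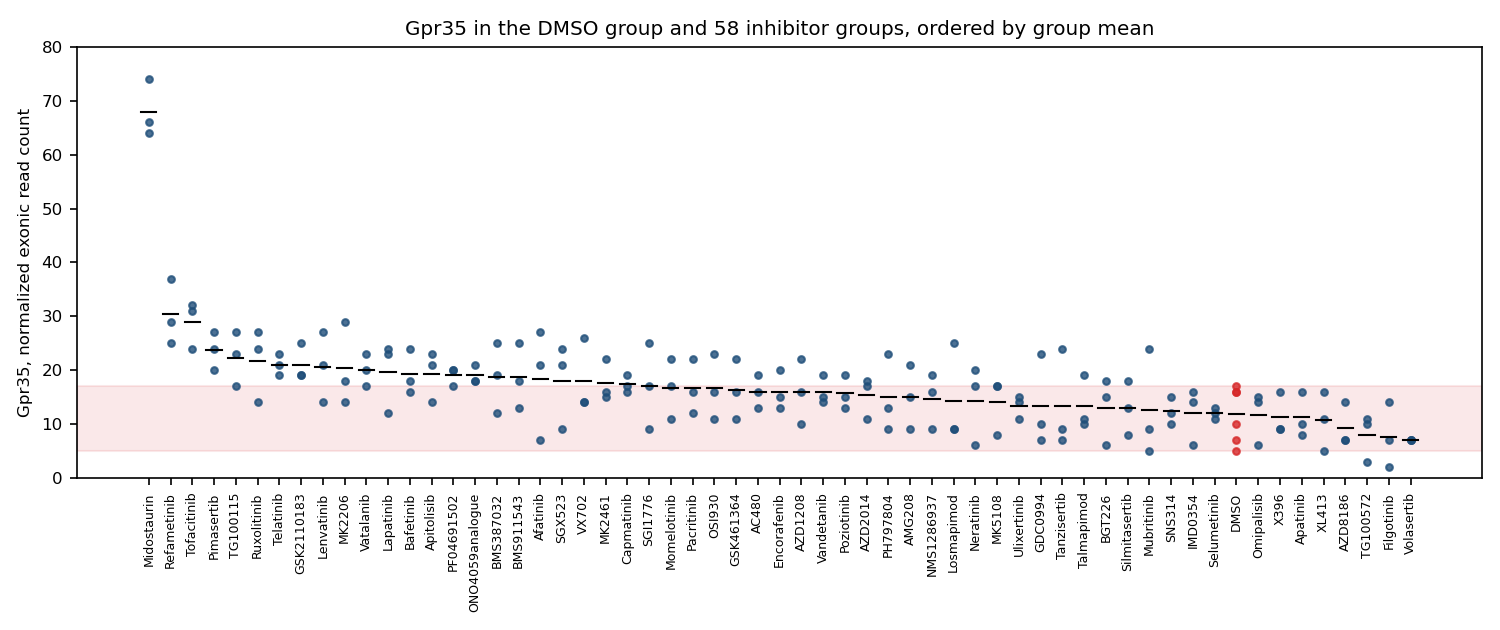
Normalized exonic read count of *Gpr35* (y axis) in each sample of the 59 groups (x axis, ordered by group mean). Points are samples, bars are group means, DMSO is red and the shaded band spans the 6 DMSO samples. The Midostaurin samples sit between 64 and 74, above all others, and most other groups reach into the DMSO band of 5 to 17.

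The table places *Gpr35* on chromosome 1 at 92973119 to 92986391 on the plus strand of mm10. RefSeq (GRCm38.p6, the same assembly) gives it 2 starts, and the 250 bases before each are shown because only one of them holds any of the motifs searched here. Capitals mark matches, on either strand, to AP-1 (TGANTCA), CRE (TGACGTCA), the shorter TGACG, NF-kB (GGG and CC with any 5 bases between), GAS (TTCNNNGAA), CCAAT or TATAAA, of which CRE contains TGACG.
Gpr35 upstream start, chr1:92972869-92973118, + strand: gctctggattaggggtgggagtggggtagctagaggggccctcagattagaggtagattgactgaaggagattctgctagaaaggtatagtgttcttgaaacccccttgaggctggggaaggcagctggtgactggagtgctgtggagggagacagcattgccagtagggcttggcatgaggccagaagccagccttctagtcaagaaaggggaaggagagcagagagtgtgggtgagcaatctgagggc
Gpr35 downstream start, chr1:92978653-92978902, + strand: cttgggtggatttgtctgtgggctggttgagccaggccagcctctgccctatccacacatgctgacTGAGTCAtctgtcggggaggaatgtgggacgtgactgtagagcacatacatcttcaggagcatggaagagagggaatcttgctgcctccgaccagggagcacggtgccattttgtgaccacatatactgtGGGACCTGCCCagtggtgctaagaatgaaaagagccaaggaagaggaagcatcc
The window of the downstream start holds the AP-1 letters TGAGTCA, found in 6.7% of 32851 promoter windows of this length, and an NF-kB match, found in 45.8%. The letters of these motifs are not in the upstream window. A match is a run of letters and no evidence of binding.

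*Ptger2* and *Ptger4* encode EP2 and EP4, the Gs-coupled receptors of prostaglandin E2. Both differed between CKIs. Of the 4 CKIs called for *Ptger4*, Filgotinib and BMS911543 were also called for *Ptger2*, in the other direction. *Ptger2* was called higher in 5 and lower in 3 of 57 CKIs, against a background of 2.52% of all gene and CKI pairs called higher and 1.65% called lower. Its F-test over the 57 contrasts had an adjusted p of 5.61e-20 and stood at place 86 of 12714 genes, of which 48.4% passed. *Ptger4* was called lower in 4 CKIs and higher in 0 by limma (2 at an unadjusted p under 0.05, 0 with a replicate block), with an adjusted p of 6.22e-12 in the F-test.

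In DMSO *Ptger2* had 177 at the lowest, 227 at the median and 262 at the highest. Filgotinib gave the highest level with 427, 512 and 436, all above the DMSO samples, a log2 fold change of 1.04 ± 0.16 (SE, limma adjusted p = 8.51e-08). Tofacitinib gave 405, 452 and 362 (0.87 on the log2 scale), Momelotinib, an inhibitor of JAK1 and JAK2, 345, 379 and 362 (0.70), and BMS911543, an inhibitor of JAK2, 316, 418 and 345 (0.69). So 4 of the 6 JAK inhibitors of the series raised *Ptger2*, with no overlap with DMSO. The other 2, Ruxolitinib with 231, 239 and 259 and Pacritinib with 292, 316 and 208, were not called. PF04691502, an inhibitor of PI3K and mTOR, was the fifth CKI called higher, with 340, 264 and 305 (0.44), a small difference close to the DMSO samples.

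The lowest *Ptger2* was found with Pimasertib, at 92, 123 and 100 (log2 fold change -1.08 ± 0.16 SE, limma adjusted p = 1.64e-07). PH797804, an inhibitor of the stress kinase p38, gave 129, 128 and 81 (-1.0), and BGT226, an inhibitor of PI3K and mTOR, 149, 151 and 133 (-0.62). All 9 samples lay below the DMSO samples. The other MEK inhibitors, Refametinib with 244, 230 and 241 and Selumetinib with 234, 195 and 226, and the other p38 inhibitors, Losmapimod with 179, 155 and 183, Talmapimod with 211, 187 and 253 and VX702 with 181, 308 and 168, were not called. The Filgotinib, Pimasertib and BGT226 calls held in all 25 alternatives. The others were lost when replicate 2 of all groups was left out (limma adjusted p = 0.330 for Tofacitinib, 0.427 for Momelotinib, 0.186 for BMS911543 and 0.189 for PF04691502), except PH797804, which missed the threshold narrowly in a fit of only the groups compared (0.0503). Without replicate 2 of the inhibitors alone the Tofacitinib and Momelotinib calls also went (0.0537 and 0.113), and Momelotinib was lost without replicate 1 of the inhibitors (0.0599) and against DMSO set 1 alone (0.113). The PF04691502 call was lost in 17 of 25 alternatives, among them each left-out inhibitor replicate (0.331, 0.0551 and 0.0684) and DMSO set 1 replicate 2 or DMSO set 2 replicate 2 or 3 (0.0656, 0.139 and 0.0743).

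In DMSO *Ptger4* had 809 at the lowest, 1452 at the median and 1924 at the highest, a wide range. AZD2014, an inhibitor of mTOR, gave 448, 337 and 660 (log2 fold change -1.47 ± 0.22 SE, limma adjusted p = 4.18e-08). Afatinib, an inhibitor of the EGF receptor family, gave 438, 437 and 547 (-1.45, limma adjusted p = 3.35e-07), and BMS911543 gave 440, 760 and 439 (-1.28, adjusted p = 3.21e-06). All 9 samples lay below the DMSO samples, and these 3 calls held in all 25 alternatives. Filgotinib, with 673, 878 and 863, was also called lower (-0.69, limma adjusted p = 0.0170), but it overlapped with DMSO. This call was lost without replicate 1 of the inhibitors (0.215) or DMSO set 2 replicate 2 (0.0728). With AZD2014 *Ptger2* was not called, and with Pimasertib, PH797804 and BGT226, where *Ptger2* was low, *Ptger4* was not called.

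The windows before the starts of both genes are shown because the receptors share a ligand and differ in their response. *Ptger2* lies on chromosome 14 at 44988111 to 45003820 and *Ptger4* on chromosome 15 at 5233399 to 5244187. Capitals mark the same motifs as above.
Ptger2, chr14:44987861-44988110, + strand: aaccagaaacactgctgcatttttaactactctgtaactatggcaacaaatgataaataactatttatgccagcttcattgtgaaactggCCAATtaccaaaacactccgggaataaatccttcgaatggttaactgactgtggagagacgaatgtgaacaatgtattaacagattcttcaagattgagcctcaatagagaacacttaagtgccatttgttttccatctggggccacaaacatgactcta
Ptger4, chr15:5244188-5244437, - strand: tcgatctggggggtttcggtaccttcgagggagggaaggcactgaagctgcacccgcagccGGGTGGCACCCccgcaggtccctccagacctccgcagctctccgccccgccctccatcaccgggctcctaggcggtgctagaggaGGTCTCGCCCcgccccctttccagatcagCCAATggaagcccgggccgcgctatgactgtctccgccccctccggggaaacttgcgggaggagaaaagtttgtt
The *Ptger2* window is 38.0% G and C with 3 CG pairs, the *Ptger4* window 66.8% with 19, against medians of 52.4% and 6 over all windows. Both hold CCAAT, as 33.8% of windows do, and *Ptger4* alone of the pair holds NF-kB matches.

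*Adora2b* and *Adora2a* encode the low-affinity and the high-affinity Gs-coupled receptor of adenosine. *Adora2b* was lower in 7 CKIs and higher in 2 of 57 (background 1.65% and 2.52%), the same counts as with a replicate block, with an adjusted p of 8.97e-18 in the F-test (place 128 of 12714). In DMSO it had 540 at the lowest, 606.5 at the median and 768 at the highest. PH797804 gave the lowest group mean, with 166, 201 and 185 (log2 fold change -1.78 ± 0.23 SE, 0.290-fold, limma adjusted p = 7.38e-09). BGT226 gave 190, 348 and 297 (-1.23), Afatinib 253, 323 and 352 (-1.05), and Omipalisib, an inhibitor of PI3K and mTOR, 308, 358 and 289 (-1.0). All 12 samples lay below the DMSO samples, and these 4 calls held in all 25 alternatives.

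The p38 inhibitor Losmapimod gave 265, 301 and 378 (log2 fold change -1.02 ± 0.23 SE), also with no overlap. In this contrast only 11 of 12714 genes (0.0865%) were called in either direction, *Adora2b* among them with an adjusted p of 0.0369. The call was lost in 10 of the 12 fits that left out libraries, with a limma adjusted p of up to 0.445, while the log2 fold change stayed between -0.91 and -1.16. Those fits include the ones without replicate 1, 2 or 3 of the inhibitors (0.140, 0.108 and 0.169) and without replicate 1, 2 or 3 of DMSO set 1 or replicate 3 of set 2 (0.0711, 0.0748, 0.0838 and 0.0764). The other p38 inhibitors were not called, with 412, 546 and 471 for Talmapimod and 752, 697 and 876 for VX702. Pimasertib (448, 275 and 424, limma adjusted p = 0.0145) and AZD2014 (239, 514 and 497, 0.0227) completed the 7 lower calls. Pimasertib was lost without replicate 2 of the inhibitors (0.202) and in the fit with the replicate block and the mitochondrial share (0.150), and AZD2014 without replicate 1 of the inhibitors (0.372) or DMSO set 2 replicate 3 (0.05004).

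*Adora2b* was higher with Momelotinib, at 1161, 1595 and 1362 (log2 fold change 1.10 ± 0.23 SE, limma adjusted p = 0.00266), and with Filgotinib, at 1144, 1155 and 1516 (0.99, adjusted p = 0.000663). Both groups lay above all DMSO samples. The Filgotinib call held in all 25 alternatives, and the Momelotinib call was lost without replicate 2 of the inhibitors (0.167). The other 4 JAK inhibitors were not called. Ruxolitinib with 825, 927 and 990 and Tofacitinib with 808, 1012 and 829 lay above all DMSO samples, while Pacritinib with 651, 779 and 866 and BMS911543 with 637, 739 and 489 overlapped with them. Midostaurin gave 1952, 2526 and 1780, the highest *Adora2b* of the series, 3.25-fold above DMSO, which is given without a test.

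*Adora2a* behaved differently. It had 522 at the lowest, 575.5 at the median and 871 at the highest in DMSO, and it was called lower in 2 of 57 CKIs and higher in 0 by limma (2 at an unadjusted p under 0.05, 0 with a replicate block, 1 with the block and the mitochondrial share). Volasertib gave 385, 354 and 421 (log2 fold change -0.73 ± 0.18 SE, limma adjusted p = 0.0128) and Filgotinib 465, 383 and 423 (-0.60, adjusted p = 0.0110), all below the DMSO samples. Filgotinib therefore lowered *Adora2a* and raised *Adora2b*. The Volasertib call was lost without replicate 1 or 3 of the inhibitors (0.175 and 0.0699) and without replicate 2 of DMSO set 1 or set 2 (0.0575 and 0.0570), and the Filgotinib call without replicate 2 of all groups (0.335) or against DMSO set 2 alone (0.0561). Over the 59 group means *Adora2a* and *Adora2b* had a Pearson correlation of -0.08, and *Ptger2* and *Adora2b* of 0.63. The group means come from libraries that share replicate numbers, so these are descriptions.

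**Figure D2:**
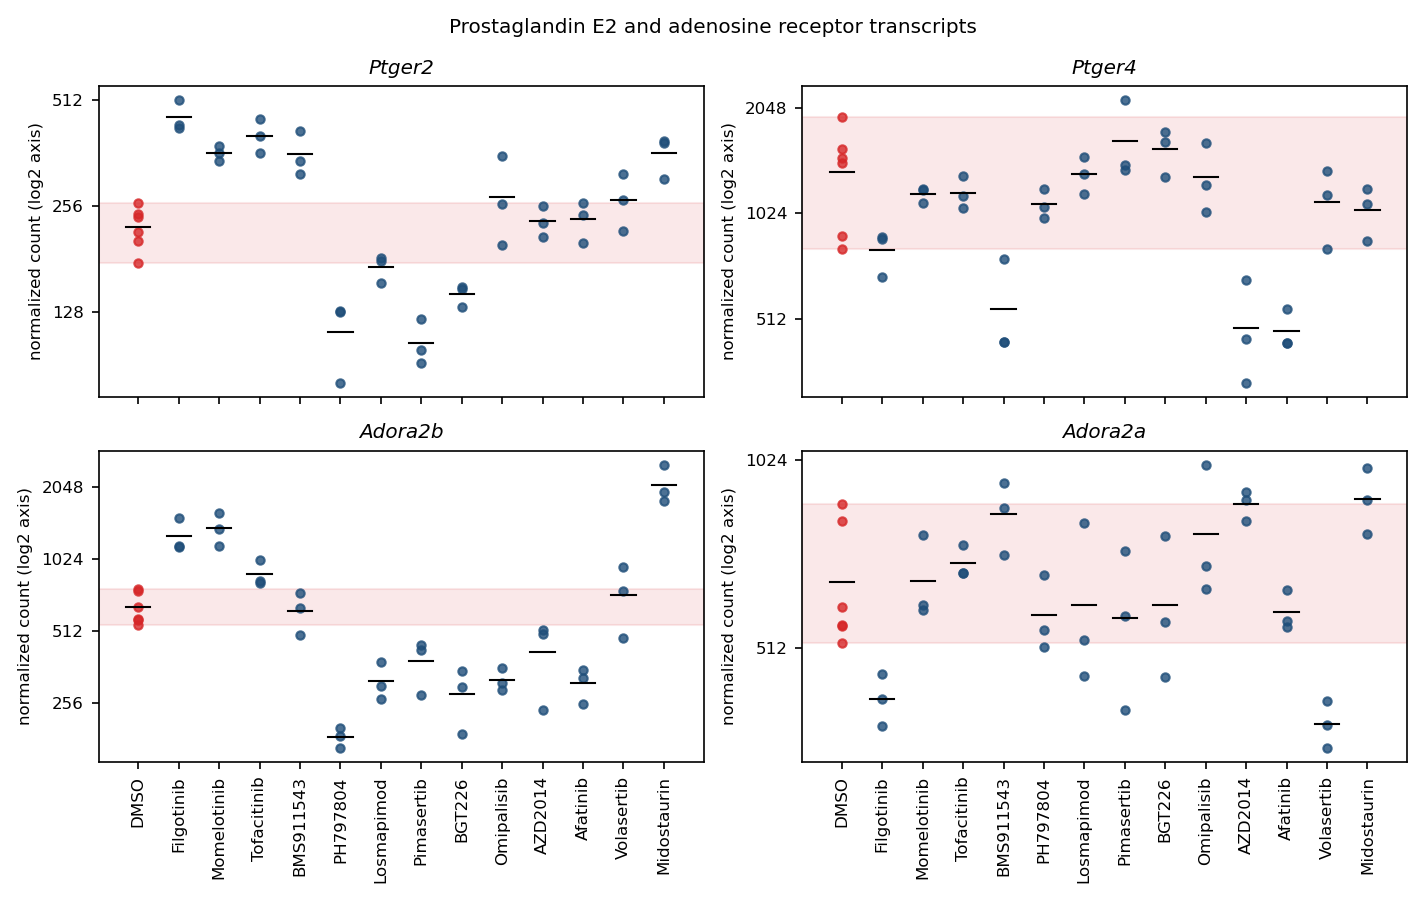
Normalized exonic read counts (y axis, log2 scale) of *Ptger2*, *Ptger4*, *Adora2b* and *Adora2a* in DMSO and 13 CKIs (x axis). Points are samples, bars are means and the band spans the 6 DMSO samples. *Ptger2* and *Adora2b* lie above the band with Filgotinib and Momelotinib and below it with PH797804, while *Ptger4* is lowest with AZD2014, Afatinib and BMS911543.

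The window before the start of *Adora2b* (chromosome 11 at 62248984 to 62266452) is shown because this gene was called in both directions, with the same motifs in capitals. No window was matched for *Adora2a*.
Adora2b, chr11:62248734-62248983, + strand: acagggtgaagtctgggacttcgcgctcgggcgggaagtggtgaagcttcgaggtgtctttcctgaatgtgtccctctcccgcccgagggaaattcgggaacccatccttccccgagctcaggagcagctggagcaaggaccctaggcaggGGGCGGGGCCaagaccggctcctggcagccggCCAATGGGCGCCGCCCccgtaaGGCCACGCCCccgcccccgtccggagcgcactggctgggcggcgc
It is 69.6% G and C with 22 CG pairs and holds 4 NF-kB matches, some of them overlapping, and CCAAT. Neither CRE nor the shorter TGACG occurs in it, nor in the windows of *Ptger2* and *Ptger4*.

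*Gpr84*, a receptor of medium-chain fatty acids that LPS is known to induce, had 1514 at the lowest, 1949.5 at the median and 2154 at the highest in DMSO. It was lower with BGT226, at 995, 701 and 969 (log2 fold change -1.12 ± 0.24 SE, limma adjusted p = 0.000105), and with Omipalisib, at 825, 1066 and 903 (-1.04, adjusted p = 0.000485). All 6 samples lay below DMSO and both calls held in all 25 alternatives. Both compounds inhibit PI3K and mTOR, and both also lowered *Adora2b*. Among the other inhibitors of PI3K and mTOR, Apitolisib and PF04691502 were not called for *Adora2b*, and PF04691502 was not called for *Gpr84*. AZD2014, an inhibitor of mTOR, was called lower for *Adora2b* but was not called for *Gpr84*. *Gpr84* was higher with Tofacitinib, at 3202, 4396 and 3236 (0.91, limma adjusted p = 0.0180), Apitolisib, another inhibitor of PI3K and mTOR, at 2792, 3625 and 3361 (0.77, 0.0274), and Lapatinib, an inhibitor of EGFR and HER2, at 2415, 3775 and 3282 (0.70, 0.0280). These samples lay above DMSO, but all 3 calls were lost without DMSO set 2 replicate 2, the lowest DMSO sample (0.0598, 0.0905 and 0.0792). They were also lost without replicate 1 or 2 of the inhibitors (Tofacitinib 0.0900 and 0.140, Apitolisib 0.0651 and 0.0627, Lapatinib 0.0619 and 0.102), where the log2 fold changes without replicate 1 were 0.98, 0.87 and 0.88, and in the fit with the replicate block and the mitochondrial share (0.200, 0.469 and 0.421), where they were 0.51, 0.29 and 0.28. The mitochondrial share averaged 2.64% with Tofacitinib, 2.93% with Apitolisib and 2.76% with Lapatinib against 1.15% in DMSO, and its part in these rises was not tested. Apitolisib and Lapatinib were further lost without replicate 3 of the inhibitors (0.123 and 0.0836).

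*Gpr132*, a receptor linked to oxidized and lactate-derived ligands, had 450 at the lowest, 563 at the median and 664 at the highest in DMSO. It was lower with Afatinib, at 357, 319 and 367 (log2 fold change -0.67 ± 0.13 SE, limma adjusted p = 2.88e-05), and with Volasertib, at 412, 368 and 358 (-0.55, adjusted p = 0.00594), all below DMSO. It was higher in 0 of 57 CKIs by limma (4 at an unadjusted p under 0.05), while the fit with a replicate block called it higher in 4 and lower in 7. Its level differed between replicate numbers across the series (limma adjusted p = 6.24e-21), as did that of 82.9% of genes. Without replicate 2 of all groups the Afatinib and Volasertib calls were lost (0.0941 and 0.266), and Volasertib also without replicate 2 of the inhibitors (0.0924) and in a fit of only the groups compared (0.424). *Gm30461* overlaps *Gpr132* on the other strand but had at most 11 in any sample.

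*Gpr65*, a proton-sensing receptor, *Gpr183*, or EBI2, the receptor of the oxysterol 7α,25-dihydroxycholesterol, and *Ccr1*, a receptor of the chemokines CCL3 and CCL5, were called higher, and lower in 0 CKIs each by limma, also at an unadjusted p under 0.05 and with a replicate block. *Gpr183* was higher in 8 of 57 CKIs (background 2.52%), *Gpr65* in 3 and *Ccr1* in 2, and with a replicate block in 14, 6 and 7 (background 4.60%). At an unadjusted p under 0.05 they were higher in 31, 13 and 13. *Gpr183* had 148 at the lowest, 301 at the median and 490 at the highest in DMSO, *Gpr65* 116, 232 and 504, and *Ccr1* 62, 120 and 325, so their DMSO samples were spread widely. DMSO stood at place 56 of 59 in the order of the *Gpr183* group means. The group means of most CKIs therefore lay above that of DMSO in *Gpr183*. The samples of 13 CKIs all lay above the DMSO samples, while those of 44 of 57 overlapped with them.

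Pimasertib gave the highest group means of *Gpr183* and *Gpr65*. *Gpr183* had 1110, 713 and 1199 (log2 fold change 1.77 ± 0.34 SE, limma adjusted p = 0.000126) and *Gpr65* 1207, 793 and 853 (1.98 ± 0.42 SE, adjusted p = 0.000618), all above DMSO. *Gpr183* was also higher with Tofacitinib at 872, 1143 and 659 (1.59), Apitolisib at 793, 779 and 1009 (1.57), Lapatinib at 830, 685 and 954 (1.5) and AZD2014 at 831, 697 and 868 (1.46). PF04691502 (1.25), Lenvatinib, an inhibitor of VEGF receptors (1.25), and Bafetinib, an inhibitor of ABL and LYN (1.22), completed the 8, and they were named because the count is small, not by the naming rule. *Gpr65* was further called with Apitolisib, at 827, 370 and 659, and Lapatinib, at 690, 562 and 516 (1.31 each). *Ccr1* was called with Apitolisib, at 539, 279 and 371 (1.49), and Lapatinib, at 368, 333 and 277 (1.25), both overlapping with DMSO.

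The share of mitochondrially encoded transcripts moved with these 3 genes. It averaged 1.15% in DMSO (0.759 to 1.94%), 3.66% with Pimasertib, 2.93% with Apitolisib, 2.76% with Lapatinib, 2.77% with Lenvatinib, 2.69% with PF04691502 and 2.64% with Tofacitinib, and Pimasertib had the highest mean of all groups. Over the 59 groups the Pearson correlation of the mean log2 level with this share was 0.85 for *Gpr65*, 0.68 for *Ccr1* and 0.65 for *Gpr183*. For deviations of the 180 samples from their group means it was 0.85, 0.83 and 0.58, and these points share library and depth. In the other receptor genes it ran from -0.47 (*Adora2b*) to 0.54 (*Gpr84* and *Ptger2*) for these deviations. The deviations also went with the summed normalized count of the sample. That correlation was 0.77 for *Gpr84*, 0.75 for *Gpr65*, 0.73 for *Ccr1*, 0.71 for *Ptger2*, 0.57 for *Gpr183* and -0.62 for *Adora2b*, the lowest of the 10 genes. In the fit with the replicate block and this share as a covariate, *Gpr65* and *Ccr1* were called higher in 0 CKIs by limma (9 each at an unadjusted p under 0.05) and lower in 1 and 2 (Afatinib for both, Omipalisib for *Ccr1*), and *Gpr183* was higher in 4 (background 1.88% higher and 2.25% lower). The log2 fold change of *Gpr65* with Pimasertib was 0.65 in that fit (limma adjusted p = 0.134) and that of *Gpr183* 0.80 (0.154). The part of the mitochondrial share in these results was not tested.

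In *Gpr183* the calls with AZD2014 and Tofacitinib were kept in that fit, Tofacitinib at a log2 fold change of 1.01 (limma adjusted p = 0.0480). With AZD2014 the mitochondrial share was 1.16%, close to DMSO, the log2 fold change was 1.46 in the fit with the share as a covariate (limma adjusted p = 4.43e-06), and the call held in all 25 alternatives. *Gpr65* and *Ccr1* were not raised with AZD2014, at 253, 161 and 153 for *Gpr65*. Against the mean of the other CKIs, where 1.09% of all gene and CKI pairs were called higher and 1.52% lower, AZD2014 and Pimasertib were the CKIs called for *Gpr183* (0.0441 and 0.0124), Pimasertib alone for *Gpr65* (0.00157) and 0 for *Ccr1* by limma (4 higher and 6 lower at an unadjusted p under 0.05). *Gpr183* lies within the span of *Ubac2* on the other strand, and since the library protocol does not mark strand, reads where their exons meet cannot be told apart. *Ubac2* had 397 to 711 over all samples, with a Pearson correlation of -0.48 to *Gpr183* over the 59 group means.

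**Figure D3:**
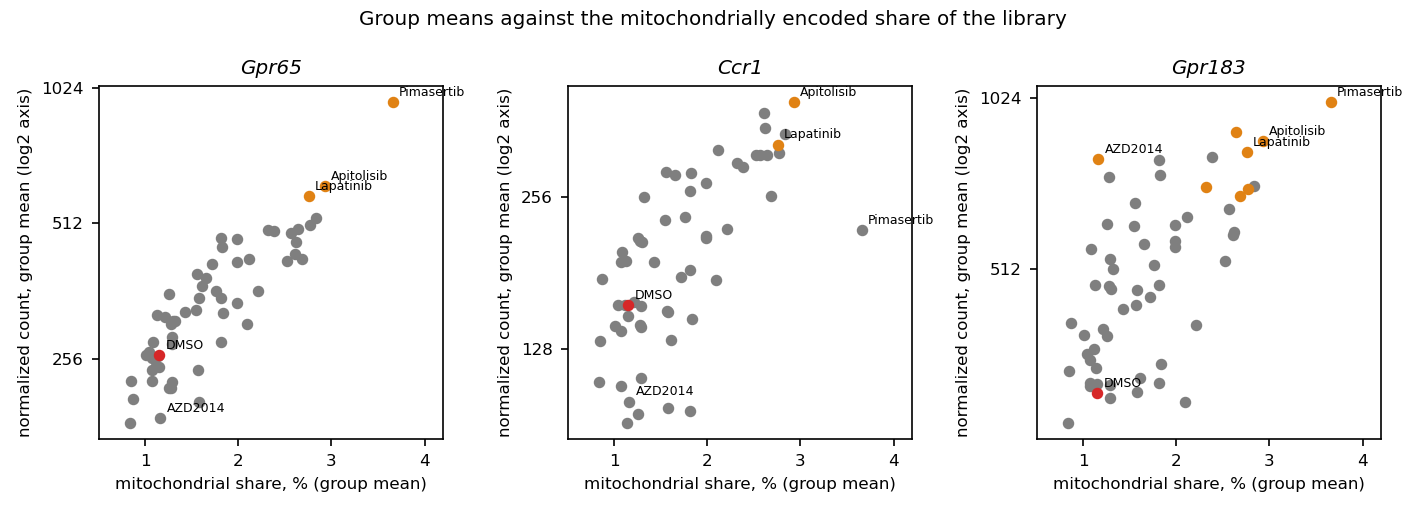
Group mean of the normalized count (y axis, log2 scale) of *Gpr65*, *Ccr1* and *Gpr183* against the group mean of the mitochondrially encoded share of the normalized counts in percent (x axis), 59 groups. DMSO is red, CKIs in which the gene was called are orange and the others grey. *Gpr65* and *Ccr1* are higher in groups with a higher share, Pimasertib in *Ccr1* lying off that line, and AZD2014 stands apart in *Gpr183* with a high level at a share of 1.16%.

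Several of these calls depended on which samples entered the fit. The fits without replicate 1, 2 or 3 of the inhibitors leave that number out of every CKI. Over all lost calls in fits that left out libraries, the log2 fold change was at a median of 92.7% of its value in the full fit (47.7 to 126%). Without DMSO set 2 replicate 2 the calls of *Gpr65* with Lapatinib and Apitolisib (limma adjusted p = 0.0745 and 0.103), of *Gpr183* with Lenvatinib and Bafetinib (0.0839 and 0.195) and of *Ccr1* with Apitolisib and Lapatinib (0.105 and 0.145) were lost. Without replicate 1 of the inhibitors the *Gpr183* calls with Tofacitinib, Lapatinib, PF04691502, Lenvatinib and Bafetinib went (0.0688, 0.0572, 0.103, 0.0800 and 0.521) at log2 fold changes of 1.59, 1.49, 1.28, 1.47 and 0.93, as did those of *Gpr65* with Lapatinib and Apitolisib (0.0965 and 0.135) and of *Ccr1* with Apitolisib and Lapatinib (0.111 and 0.129). Without replicate 2 of the inhibitors *Gpr183* with Tofacitinib, *Gpr65* with Lapatinib and *Ccr1* with Apitolisib and Lapatinib went (0.0537, 0.0600, 0.0643 and 0.157). Without replicate 3 of the inhibitors *Gpr183* with Apitolisib, Lenvatinib and Bafetinib, *Gpr65* with Apitolisib and *Ccr1* with Apitolisib and Lapatinib went (0.0632, 0.164, 0.0732, 0.123, 0.112 and 0.0651). Without DMSO set 1 replicate 2 the calls of *Gpr183* with Bafetinib and *Ccr1* with Lapatinib went (0.0693 and 0.0623), and the latter also without replicate 3 of set 1 or of set 2 (0.0805 and 0.0727).

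Over the 9 receptor genes other than *Gpr35* and the 57 CKIs other than Midostaurin, 23 of 513 pairs were called higher (4.48%, background 2.52%) and 20 lower (3.90%, background 1.65%). With a replicate block the counts were 41 (7.99%, background 4.60%) and 27 (5.26%, background 3.08%). With the block and the mitochondrial share they were 14 (2.73%, background 1.88%) and 29 (5.65%, background 2.25%). Leaving out DMSO set 2 replicate 1, in which *Gpr65* and *Ccr1* were highest among DMSO samples, gave 36 higher calls, and leaving out DMSO set 2 replicate 2 gave 14. Of the 43 calls, 38 had samples that did not overlap with DMSO, where 67.0% of all called pairs of a gene and a CKI had none, and 14 of the 43 held in all 25 alternatives, 3 of the 23 higher and 11 of the 20 lower. Filgotinib, Pimasertib, Apitolisib and Lapatinib each had 4 of the 9 genes called, where 20.7%, 21.7%, 15.9% and 23.3% of all genes were. PH797804 had 2, where 1.98% of all genes were called, and Momelotinib had 2, where 0.787% were. In 40 of the 57 CKIs none of the 9 genes was called by limma.

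With Midostaurin, *Gpr132*, *Adora2a*, *Adora2b* and *Gpr35* had their highest group means of the series. Beside *Gpr35*, the log2 fold changes were 1.70 for *Adora2b*, 1.36 for *Gpr183*, 0.70 for *Gpr84*, 0.69 for *Ptger2*, 0.57 for *Gpr132* and 0.46 for *Adora2a*, with samples above DMSO in all of these but *Adora2a*. *Ccr1* had 0.60, *Gpr65* -0.11 and *Ptger4* -0.31, each overlapping with DMSO. The mitochondrial share with Midostaurin was 1.27%. These values belong to the contrast that chose *Gpr35* and carry no test.

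**Figure D4:**
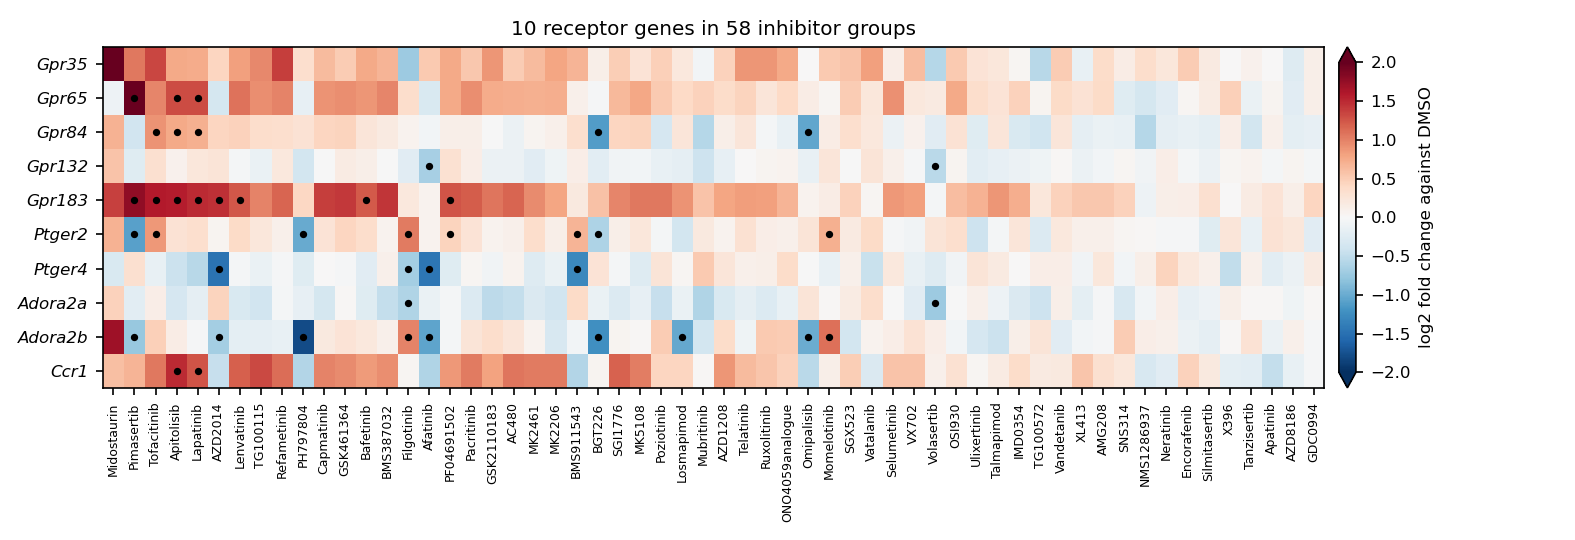
Log2 fold change against DMSO (colour, capped at 2 in either direction) of the 10 receptor genes (rows) with 58 CKIs (columns, ordered by the mean size of the change). Dots mark calls at a limma adjusted p under 0.05 and are not drawn for *Gpr35* or Midostaurin. *Gpr183* is red in most columns, and dots lie on the blue cells of *Adora2b* with PH797804 and AZD2014 and of *Ptger4* with AZD2014.

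Genes of the ligands and of signalling downstream were read from lists. Their calls are set beside the background of 2.52% higher and 1.65% lower, which became 4.60% and 3.08% with a replicate block. Among 8 tested genes of prostaglandin E2 synthesis, 6 pairs with the 57 CKIs were called higher and 12 lower (1.32% and 2.63%, median log2 fold change -0.01 against 0.06 over all genes). *Ptgs2*, the inducible cyclooxygenase, was lower with Afatinib (-1.54) and Pimasertib (-1.28) and higher with Omipalisib (1.28) and BGT226 (0.80), and *Ptges3*, a prostaglandin E synthase and chaperone partner, was lower in 5 CKIs with AZD2014 leading (-0.83). *Pla2g4a*, which frees arachidonic acid, was higher in 4 and *Ptges*, the inducible synthase, lower in 3. With Pimasertib *Ptgs2* and *Ptger2* were both lower and with Afatinib *Ptgs2* and *Ptger4* were, while with BGT226 *Ptgs2* was higher and *Ptger2* lower. With a replicate block the counts for this list were 9 and 17. Of 6 genes of adenosine supply and removal, 2 of 342 pairs were higher and 6 lower (0.585% and 1.75%), and 9 and 9 with the block. *Enpp1*, *Slc29a1*, *Ada* and *Entpd1* were each called in at most 3 CKIs.

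Cyclic AMP and CREB target genes, 9 tested, had 27 higher and 9 lower calls (5.26% and 1.75%, median 0.21), and 41 and 12 with the block. *Fosb*, an AP-1 subunit, was higher in 12 CKIs with PF04691502 (3.35), Omipalisib (2.94) and BGT226 (2.64) leading. *Dusp1*, the phosphatase that switches off p38, was lower in 7, among them AZD2014 (-4.30), BMS911543 (-3.65) and Afatinib (-3.62), the 3 CKIs with the lowest *Ptger4*. *Il10* was higher with Lapatinib and Omipalisib and lower with PH797804 (-1.70), and *Nr4a1* was higher in 3 CKIs. Adenylyl cyclase and PKA genes, 9 tested, had 15 higher and 2 lower calls of 513 pairs (2.92% and 0.39%), and 23 and 6 with the block. *Prkar1b*, *Prkar2a* and *Prkaca* were higher in 4, 4 and 3 CKIs and *Adcy7* was called once in each direction. The 9 phosphodiesterase genes had 12 higher and 4 lower calls of 513 pairs (2.34% and 0.78%), and 22 and 12 with the block. *Pde4b*, the phosphodiesterase that LPS induces, was lower in 4 CKIs and higher in 2. *Pde7b*, *Pde4d* and *Pde7a* were higher in 3, 2 and 2.

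G-protein subunits, 17 tested, had 17 higher and 20 lower calls (1.75% and 2.06%) and 43 and 29 with the block, with *Gna15* lower in 4 and higher in 1, *Gnb1* higher in 5, *Gna13* 2 each way and *Gnai3* lower in 4. Receptor kinases and arrestins, 10 tested, had 13 higher and 8 lower calls of 570 pairs (2.28% and 1.4%), and 24 and 10 with the block. *Txnip*, an arrestin-fold protein that responds to glucose, gave 7 higher and 1 lower, and *Arrdc4*, *Arrb2* and *Arrdc3* gave 5, 3 and 3 calls. The oxysterol enzymes, 3 tested, had 10 higher and 1 lower (5.85% and 0.585%), and 20 and 2 with the block. *Ch25h*, which makes 25-hydroxycholesterol, was higher with Lapatinib (1.16), Tofacitinib (1.09) and PH797804 (0.91) and lower with BGT226 (-1.08), and *Hsd3b7* and *Cyp27a1* were higher in 3 and 2 CKIs. The 7 ligands of *Ccr1* had 17 higher (4.26%) and 0 lower calls by limma among 399 pairs (66 and 2 at an unadjusted p under 0.05, 40 and 2 calls with a replicate block). The higher calls were led by *Ccl7* in 7 CKIs, with *Ccl3*, *Ccl4* and *Ccl5* in 3, 2 and 2.

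Other receptors related to these by ligand or by receptor family, 11 tested, had 27 higher and 6 lower calls of 627 pairs (4.31% and 0.957%), and 55 and 16 with the block. *Ccr7*, *Ccr2* and *Ccrl2* were higher in 5, 5 and 4 CKIs, and *Ccr7* was lower in 1, PH797804, at 8, 4 and 10 (log2 fold change -2.12). Among 34 other macrophage receptors, 59 pairs were higher and 31 lower (3.04% and 1.60%), and 150 and 45 with the block. *Cxcr4*, the CXCL12 receptor, was higher in 13 CKIs, reaching 489, 384 and 221 with BGT226 from a mean of 18.7 ± 20.6 (SD, n = 6) in DMSO, and *Gpr18* in 6. *Gpr146* was lower in 9, with Afatinib (-1.24) among them, and *P2ry2*, a nucleotide receptor, was lower in 6 and higher with BGT226 (1.22) and Omipalisib (1.02).

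The genes whose 59 group means resembled those of *Gpr35* most, by Pearson correlation on the log2 scale, were *Tshz1* (0.74), *Mmp19* (0.71), *Lcn2* (0.67), *Gpr85* (0.67) and *AI839979* (0.67). Without the Midostaurin group the correlations were 0.71, 0.56, 0.58, 0.63 and 0.58. For *Ptger4* it was *Rdx* (0.90), and they were for *Ptger2* *Alas1* and *Pdgfb* (0.75 and 0.74), for *Adora2b* *Phf23* and *Bag3* (0.81 and 0.74) and for *Adora2a* *Stard7* and *Cacnb3* (0.81 and 0.79). For *Gpr84* they were *Lrrc25* and *Myadm* (0.83 and 0.79), for *Gpr132* *Spata13* and *Ccl24* (0.79 and 0.74), and for *Gpr183* *Egr2* and *Mef2c* (0.85 and 0.84). *Gpr65* was closest to *5430427O19Rik* and *Dnajb4* (0.94 each). *Ccr1* was closest to *Ccr3* and *Ccr2* (0.90 and 0.89), which lie 53.3 and 133 kb from it on chromosome 9. Over the same groups *Gpr65* and *Ccr1* had a correlation of 0.78 with each other, and in the deviations of the 180 samples from their group means one of 0.93. These are likenesses of pattern over groups that share libraries and depth.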

How the data were processed

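PolyA RNA of 180 samples was sequenced with an unstranded SMART-seq2 protocol. The authors aligned reads to mm10 (TopHat2 2.1.1), removed blacklisted regions (bedtools 2.29.2), counted reads on RefSeq exons, scaled each sample on invariant genes and rounded. The deposited values are therefore treated as a score and not as counts, and no count model was applied. Sequencing depth before scaling is not known from them. All 180 value columns matched a sample title, with 0 left over. No authors' comparison was used.

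Groups came from the sample titles. Genes with a mean of at least 10 (12714 of 45070) were tested on log2(value + 1) with limma 3.58.1 (trend) in R 4.3.3, all 59 groups in 1 fit, with Benjamini-Hochberg adjustment within each contrast and a threshold of 0.05. Code was tested on simulated data. The study's methods call the replicates independent and biological, without saying whether they came from separate mice. The F-test over CKIs is not reported for *Gpr35*, since DMSO entered its choice. Replicate numbers were checked as pairs: the correlation of same-numbered deviations was over 0.1 for all 3 numbers in 34 of 58 CKIs (medians 0.50, 0.25 and 0.27), and nothing in the labels says what a number marks. A fit with the number as a block is therefore an alternative. Alternative settings numbered 24, and 1 more (the mean of the other CKIs as reference) was added after seeing the data.

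The 10 genes and the gene lists were chosen with earlier results of these data known. For each receptor gene the text names up to 5 CKIs with the largest called rise and fall whose samples did not overlap with DMSO, from each list up to 4 genes with the most calls, and the genes closest in pattern. Other names in small counts were chosen after their values were seen. Promoter windows came from RefSeq on GRCm38.p6. A few genes that this rule names are not reported here.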

Additional observations from a re-analysis of the deposited data

How the results depend on the processing

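Of the 43 calls of the 9 receptor genes in 57 CKIs, 0 reversed under any of the 25 alternatives and 14 held in all of them. Beyond the fewer samples of some fits, the cause of lost calls was not tested. Against 23 higher calls, 12 were found against DMSO set 1 alone, 13 against set 2 alone, 12 in a fit of only the groups compared and 15 against the mean of the other CKIs, the reference chosen after seeing the data. Against 20 lower calls, 13 were found in the fit of only the groups compared. Leaving out libraries gave 7 (without replicate 2) to 36 (without DMSO set 2 replicate 1) higher and 13 to 21 lower calls.

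The fit with the replicate block, which takes the replicate number as a pairing across groups, had 41 higher calls and ended none of the 43. With the block and the mitochondrial share it had 14 higher and 29 lower calls, and 16 of the 43 were lost, at 28.0 to 71.6% of their log2 fold change in the full fit.

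The limma adjusted p of the F-test over CKIs passed the threshold for the 9 genes other than *Gpr35* outside the fits that left out libraries. Over those fits it ran from 0.00164 to 0.150 for *Gpr65*, 3.04e-08 to 0.168 for *Gpr132*, 2.28e-08 to 0.0534 for *Gpr183*, 9.52e-06 to 0.0882 for *Adora2a* and 0.000868 to 0.192 for *Ccr1*. *Gpr35* has so few reads that differences of a few counts are not resolved. The 2 DMSO sets did not differ at the threshold in any gene by limma (0 genes, 310 at an unadjusted p under 0.05), and what set them apart is not given in the labels.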
